A study of Mus musculus with 2 samples.

Results

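The genes of the aggrecan and hyaluronan aggregate are described here in mouse chondrocytes. The members are given by name, as 10 gene symbols (Acan, Vcan, Hapln1, Susd5, Tnfaip6, Cd44, Has2, Has3, Hyal1 and Hyal2) and were looked up by symbol in the authors' deposited expression table, where 10 of 10 were present among 13138 genes. RNA was sequenced from 2 libraries of primary mouse chondrocytes of the C57Bl/6 strain, kept ex vivo in micromass culture, where a dense drop of cells lays down cartilage-like matrix. One culture received an adenovirus that carries Cre recombinase, an enzyme that cuts out DNA between loxP sites, and its genotype label is hdac3-knockout. The culture labelled wild-type received a GFP control adenovirus, which carries green fluorescent protein. The source label of each RNA library names an H3K27ac ChIP sample, whereas title, library source and extraction give RNA, which was followed. The age of the mice, the number of animals or dishes behind each library and whether the GFP culture also carries loxP sites in Hdac3 are not given in the labels.

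Aggrecan is a large proteoglycan whose core protein, encoded by Acan, carries many chondroitin sulfate and keratan sulfate chains. In cartilage, many aggrecan molecules bind along 1 strand of hyaluronan, a long sugar polymer without a protein core, and link protein locks each of them in place. The fixed charge of the aggregate draws in water and lets cartilage resist compression. Hyaluronan is made at the cell surface by the Has enzymes, held there by the receptor CD44, modified by TSG-6 (gene Tnfaip6) in inflamed tissue, and broken down by hyaluronidases. Aggrecan, versican, link protein, TSG-6, CD44 and the Susd5 product share the Link module, a fold that in several of them binds hyaluronan.

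With 1 library in each group there is no replicate check and no test, and each difference compares 2 libraries and not 2 conditions. The authors deposited log2 normalized counts, from which the depth of the libraries cannot be known. Hdac3 had a log2 value of 10.68 in the Cre-labelled library and 10.69 in the GFP-labelled library. This total over the whole gene did not bear out the knockout label, although transcripts that lack the removed exons would still be counted. The libraries are therefore called by their labels. The defining cartilage collagen gene Col2a1 was abundant in both, at 19.97 and 20.35. Collagen genes read here as fibroblast and perichondrial markers were abundant as well. In the Cre-labelled and GFP-labelled library, Col1a1 had 16.86 and 16.99, Col1a2 17.06 and 17.39, and Col3a1 17.16 and 16.81.

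The aggregate genes split in direction, across roles. The aggrecan core protein, link protein and Susd5 genes were lower in the Cre-labelled library by 0.72 to 0.83 on the log2 scale, whereas the versican, TSG-6 and CD44 genes were higher there by 0.37 to 0.72. Both synthases and both hyaluronidases differed by 0.16 or less. At a threshold of 1.5-fold, 3 of 10 members were lower, where 0.952% of 12809 genes compared were lower, and 2 of 10 were higher, where 2.25% were higher. Members were chosen with earlier results of these data known, so these counts are not independent evidence. At 2-fold, 0 of 10 members passed in either direction, beside 0.0703% of genes lower and 0.734% higher. The median difference over the 10 members was -0.01, and that over the 12809 genes was -0.00041. The sign of the members' median turned with the scaling and the minimum (-0.07 to 0.08).

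**Figure D1:**
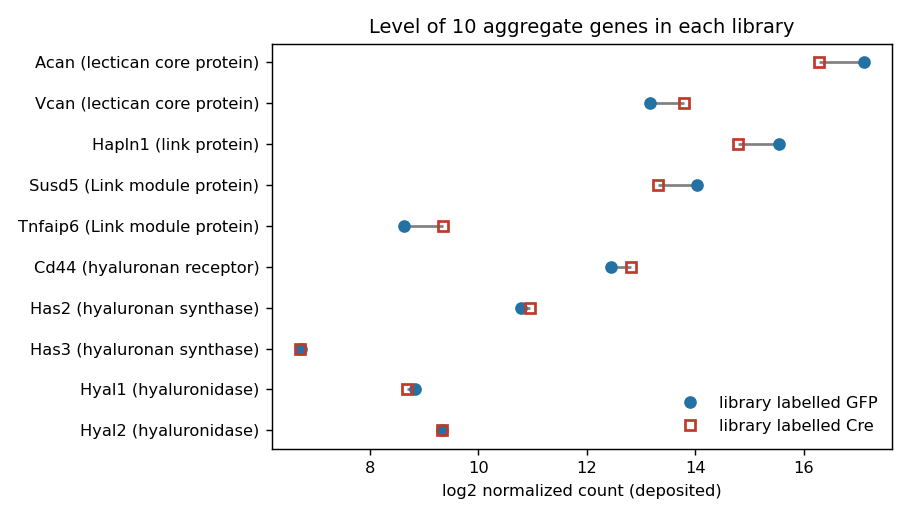
Deposited log2 normalized count of each of the 10 genes (horizontal axis), grouped by role, in the GFP-labelled library (filled circles) and the Cre-labelled library (open squares), with 1 library per group and no error bars. Acan, Hapln1 and Susd5 have the square to the left of the circle, Vcan, Tnfaip6 and Cd44 have it to the right, and for Has3 and Hyal2 the symbols coincide.

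Acan lies on the plus strand of chromosome 7, from 79053483 to 79115099 (GRCm38, the assembly also called mm10). Its log2 value was 16.29 in the Cre-labelled library and 17.12 in the GFP-labelled library. On the linear scale of the transformed values these are 80185 and 142479 normalized counts, a difference of -0.83 in log2 or 1.78-fold. Acan ranked 34 from the lowest difference among 12809 genes. No other gene of the annotation used here shares exon bases with Acan, Vcan, Hapln1, Susd5, Tnfaip6 or Cd44.

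Vcan encodes versican, the lectican of loose connective tissue and of the precartilage matrix, which binds hyaluronan through the same kind of domain as aggrecan. The gene lies on the minus strand of chromosome 13, from 89655312 to 89742509. Its log2 value was 13.79 in the Cre-labelled library and 13.16 in the GFP-labelled library, a difference of 0.63 or 1.55-fold. Under scaling to common reference genes the difference was 0.57, just short of 1.5-fold. Aggrecan and versican therefore differed in opposite directions, and the gap between them shrank from 3.96 to 2.50 on the log2 scale. The ratio of Acan to Vcan was 2.75-fold lower in the Cre-labelled library, a value that does not depend on gene length or on a factor applied to a whole library. Per kilobase of exon, Vcan made up 3.21% of the 2 lectican transcripts in the GFP-labelled library and 8.37% in the Cre-labelled library. With the longest annotated transcript as the length, these shares were 3.66% and 9.48%. Aggrecan was the more abundant lectican per kilobase in both libraries. Splice forms of versican differ in the glycosaminoglycan attachment region and were not resolved by the gene totals.

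Hapln1 encodes link protein 1, which binds both hyaluronan and the aggrecan head domain. It lies on the plus strand of chromosome 13, from 89539796 to 89611652. Its log2 value was 14.79 in the Cre-labelled library against 15.55 in the GFP-labelled library, a difference of -0.77 or 1.70-fold. Link protein and aggrecan kept nearly the same proportion to each other. The log2 gap between Acan and Hapln1 moved by -0.06 between the libraries, so their ratio differed by 1.05-fold.

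Susd5 encodes a membrane protein with a Link module and a sushi domain whose role in cartilage is little described. The gene spans 114057140 to 114098728 on the plus strand of chromosome 9. It had 13.31 in the Cre-labelled library and 14.04 in the GFP-labelled library, a difference of -0.72 or 1.65-fold. The ratio of Acan to Susd5 differed by 1.08-fold. Acan, Hapln1 and Susd5, on 3 different chromosomes, thus lay within 0.11 of each other in their differences, at ranks 34, 51 and 63 from the lowest.

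**Figure D2:**
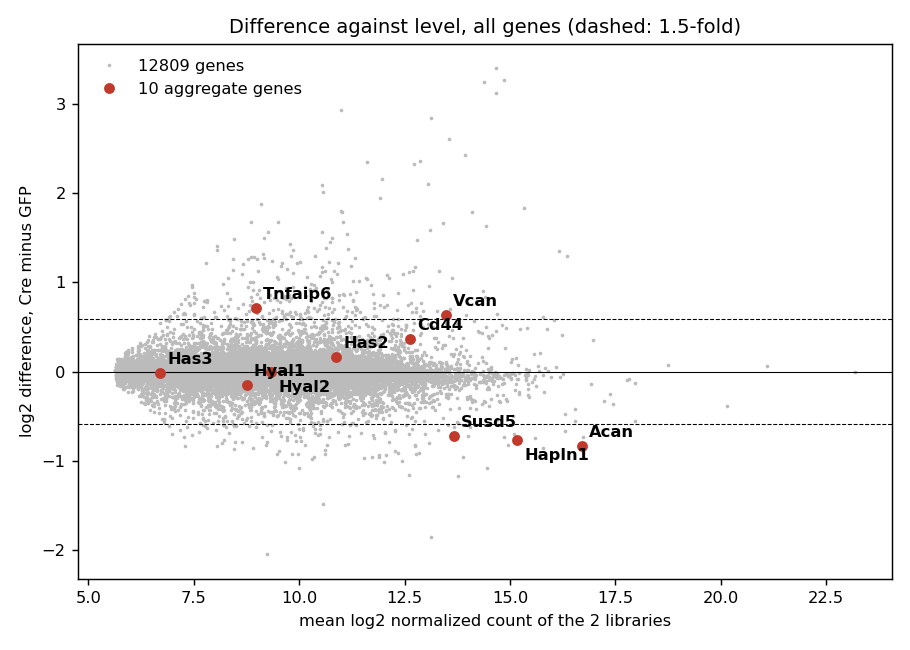
Log2 difference (Cre minus GFP) against the mean log2 normalized count of the 2 libraries for 12809 genes (grey points), with the 10 aggregate genes in red and dashed lines at 1.5-fold. Susd5, Hapln1 and Acan lie below the lower line at high levels, Tnfaip6 and Vcan above the upper line, and Has3, Hyal1 and Hyal2 near 0.

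The 3 lower members are among the abundant genes, which spread more widely in this table. Of the 1362 genes whose mean log2 value reached 12, 2.94% were lower and 3.67% higher by 1.5-fold or more. Among the 5 members at that level (Acan, Hapln1, Susd5, Vcan and Cd44), 3 were lower and 1 was higher. Of 11447 genes below 12, 0.716% were lower and 2.08% higher, and among the 5 members there 0 were lower and 1, Tnfaip6, was higher. The level of 12 was set after the values were seen.

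Tnfaip6 encodes TSG-6, a secreted protein induced by inflammatory cytokines that moves heavy chains of inter-alpha-inhibitor onto hyaluronan. It lies on the plus strand of chromosome 2, from 52038009 to 52056686. Its log2 value was 9.34 in the Cre-labelled library and 8.62 in the GFP-labelled library, or 647 against 394 normalized counts. The difference was 0.72 or 1.64-fold, at rank 189 from the highest of 12809. It was the highest difference among the members.

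The promoter letters of Acan and Tnfaip6 are shown because these genes lie at the low and the high end of the differences. The sequences are from RefSeq (GRCm38.p6), both on the plus strand, and hold bases before the RefSeq start that lie in no annotated exon. The Acan stretch is chr7:79052976-79053225, bases 250 to 1 before the start, and the Tnfaip6 stretch is chr2:52037863-52038008, bases 250 to 105 before it. Capitals mark matches to the motifs searched, on either strand.
Acan: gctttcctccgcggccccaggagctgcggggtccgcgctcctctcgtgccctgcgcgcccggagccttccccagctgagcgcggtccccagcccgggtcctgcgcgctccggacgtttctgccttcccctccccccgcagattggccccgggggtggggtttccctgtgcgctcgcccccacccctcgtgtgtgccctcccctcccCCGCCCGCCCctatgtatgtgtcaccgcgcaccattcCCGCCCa
Tnfaip6: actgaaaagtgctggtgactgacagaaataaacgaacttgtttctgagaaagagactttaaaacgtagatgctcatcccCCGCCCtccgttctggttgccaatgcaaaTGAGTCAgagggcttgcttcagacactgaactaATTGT

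The motifs were the GC box GGGCGG, the AP-1 form TGANTCA, the SOX core ACAAT, the TATA box TATAAA and an NF-kappaB form given by name alone, each searched on both strands in the 250 bases before the start. Promoter windows were matched for 8 of 10 members, and Has2 and Has3 had no match. The windows of Hapln1, Vcan and Hyal2 held 0 bases outside annotated transcribed sequence. In the Susd5 window the longest stretch outside it was 36 bases. The SOX core of Hapln1 and the GC boxes of Vcan and Hyal2 thus lay in annotated transcribed sequence. The Acan window held the GC box 3 times on the minus strand, of which 2 copies overlap. It held no exact match to the other motifs in the forms searched. Its GC content was 74.4%, against a median of 52% over 27025 genes. The Tnfaip6 window held 1 AP-1 match, at bases 142 to 136 before the start, 1 GC box and 1 SOX core, at a GC content of 44.4%. The AP-1 form occurred in 6.87% of all 27025 windows and in 2 of the 8 member windows, Tnfaip6 and Susd5. Susd5 was lower and Tnfaip6 higher in the Cre-labelled library. The GC box occurred in 32.9% of windows and in 6 of the 8, with Hapln1 and Cd44 as the exceptions. The SOX core occurred in 28.3% of windows and, among members, in Hapln1 and Tnfaip6. The TATA box, in 12.97% of windows, and the NF-kappaB form, in 1.40%, were in 0 of the 8. The NF-kappaB form was a narrow pattern whose letters are not printed here, and other forms of this site were not searched. The result for it therefore does not show that the member windows, that of Acan included, lack NF-kappaB-like sites. Enhancers lie outside these windows and were not searched.

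Cd44 encodes the main hyaluronan receptor of the chondrocyte surface, which anchors the aggregate to the cell and takes up hyaluronan fragments. The gene lies on the minus strand of chromosome 2, from 102811141 to 102901665. Its log2 value was 12.81 in the Cre-labelled library and 12.44 in the GFP-labelled library. The difference of 0.37 or 1.29-fold was below the 1.5-fold threshold, as it was under each scaling tried (0.31 to 0.39). Between Acan and Cd44 the ratio was 2.30-fold lower in the Cre-labelled library.

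Of the synthase genes, Has2 makes the long hyaluronan chains of cartilage. It lies on the minus strand of chromosome 15, from 56665627 to 56694539. Has2 had 10.95 in the Cre-labelled library and 10.79 in the GFP-labelled library, a difference of 0.16 or 1.12-fold. Its antisense gene Has2os, listed in the table as Has2as, shares 182 bases of the 4237 bases of Has2 exon and differed by 0.03. Has3 lies on the plus strand of chromosome 8, from 106870242 to 106884566, and had 6.71 and 6.72, the lowest level of the members per kilobase as well. The Has3 difference of -0.01 changed sign (0.0017) when totals without Rn45s and Lars2 were made equal. Differences of low-level genes are narrow in this table: 99% of genes with a mean below 7 differed by less than 0.50, against 0.92 over all genes compared. The transform is not given, and a regularized log would understate differences of such genes. Chtf8, on the other strand, shares 5.52% of the Has3 exon length. Reads of such pairs cannot be told apart in these gene totals, and the strand setting of the counting is not given.

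Hyal1 and Hyal2 encode hyaluronidases, the first working in lysosomes and the second anchored at the cell surface. They lie next to each other on the plus strand of chromosome 9, Hyal2 from 107567945 to 107572779 and Hyal1 from 107576927 to 107581710. Hyal2 had 9.33 in the Cre-labelled library and 9.34 in the GFP-labelled library, or -0.0017 apart, with the opposite sign once totals were made equal. Hyal1 had 8.69 and 8.83, a difference of -0.15. Of the Hyal1 exon length, 50.8% is shared with Naa80, listed in the table as Nat6, and 4.21% with Hyal3, both on the same strand. The Hyal1 value is therefore uncertain. Nat6 differed by -0.01 and Hyal3 by -0.05.

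The 2 members that adjoin on chromosome 13 differed in opposite directions. Hapln1 and Vcan are direct protein-coding neighbours, transcribed towards each other with 43659 bases between them. Hapln1 differed by -0.77 and Vcan by 0.63. The outer neighbours were close to level, with Edil3 at -0.16 and Xrcc4 at -0.04. The ratio of Hapln1 to Vcan was 2.63-fold lower in the Cre-labelled library. Around the hyaluronidase genes, Tusc2 differed by 0.03 and Ifrd2 by 0.04. The neighbour of Acan, with 2 bases between the annotated genes, is Hapln3, another link protein gene, which was not analysed here.

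**Figure D3:**
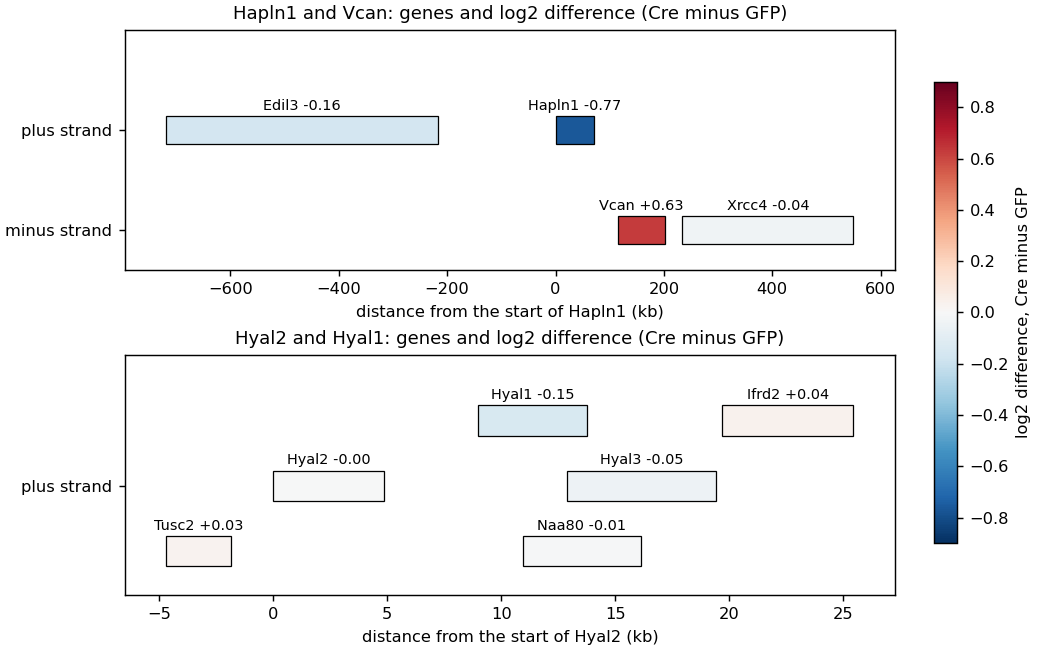
Protein-coding genes around Hapln1 and Vcan (top) and around Hyal2 and Hyal1 (bottom), drawn to scale against distance in kb from the start of the first member, and coloured by log2 difference (Cre minus GFP), which is printed above each gene. Height separates strands at the top and overlapping genes at the bottom, where Naa80 carries the value listed as Nat6. Hapln1 at -0.77 and Vcan at 0.63 stand beside neighbours close to 0.

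Levels of different genes were set side by side after division by exon length. Acan led with 19076 normalized counts per kilobase of exon in the GFP-labelled library, followed by Hapln1 with 8155 and Susd5 with 4118. A step below came Cd44 with 821, Vcan with 633 and Has2 with 418. Tnfaip6 had 230.5, Hyal2 196, Hyal1 121 and Has3 16.5. Of the Hyal1 exon length, 50.8% is shared with Naa80, and neither length used here leaves out the shared bases. The place of Hyal1 in the order is therefore uncertain. In the Cre-labelled library the order was the same, although the distances changed. Acan had 10736 there, Hapln1 4797 and Susd5 2493, while Cd44 had 1062, Vcan 981 and Tnfaip6 378. The order was the same with the longest annotated transcript as the length. Without replicates, no pair of neighbours in this order can be said to differ beyond its spread. Among the 6 Link module genes together, Acan held 57.7% of the summed level per kilobase in the GFP-labelled library and 52.5% in the Cre-labelled library. Hapln1 held 24.7% and 23.5%, and Susd5 12.5% and 12.2%. Cd44, Vcan and Tnfaip6 had small shares that were larger in the Cre-labelled library: 5.19% against 2.49% for Cd44, 4.8% against 1.92% for Vcan, and 1.85% against 0.698% for Tnfaip6.

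**Figure D4:**
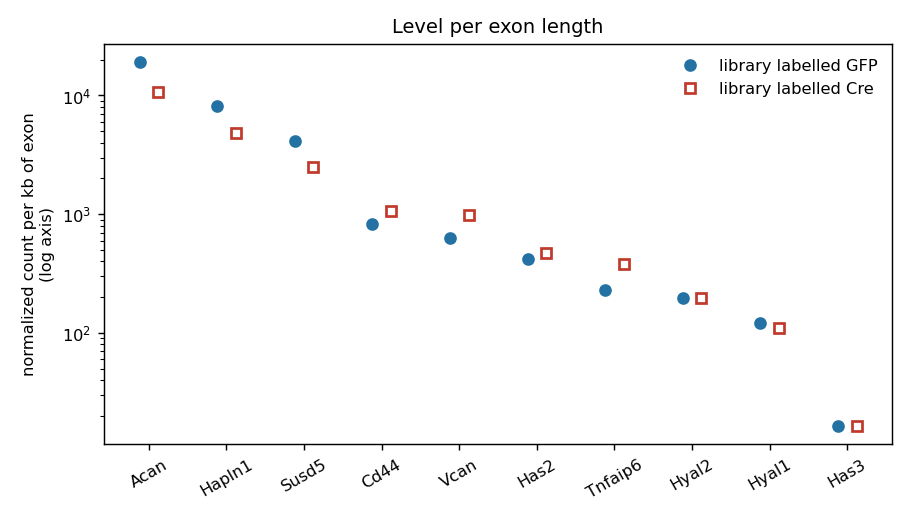
Normalized count per kilobase of exon (log axis) of the 10 genes in the GFP-labelled library (filled circles) and the Cre-labelled library (open squares), ordered by the level in the GFP-labelled library, with 1 library per group. Acan leads at 19076 and 10736 and Has3 is last at 16.5 and 16.4. Cd44, Vcan, Has2 and Tnfaip6 have the square above the circle.

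Other genes of the pathway were followed in 9 lists, of which 55 of 70 genes had a value. Of these 55, 4 were higher and 3 lower in the Cre-labelled library by 1.5-fold or more, with a median of -0.04. Over all 12809 genes compared, 2.25% were higher and 0.952% lower at that threshold, and 6393 lay above 0 and 6416 below. In the list of other lecticans and link proteins 2 of 5 genes were compared, both at low levels: Ncan differed by -0.06 and Hapln4 by -0.04. Hyaluronan synthesis and precursor supply had 0 of 8 genes past the threshold in either direction and a median of -0.04. Has1, the third synthase, differed by 0.37. Gfpt1, the entry enzyme of the hexosamine pathway, differed by -0.34. Uap1, which makes the UDP-N-acetylglucosamine used for hyaluronan, differed by 0.24, and the acetyltransferase gene Gnpnat1 of the same route by -0.19. Ugdh, which makes UDP-glucuronic acid, differed by 0.18.

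Genes of hyaluronan breakdown were also close to level. Of 7 compared, 0 passed the threshold, and the median was -0.05. The cell surface hyaluronidase gene Tmem2 differed by 0.20. The lysosomal glycosidase gene Gusb differed by 0.15. Cd9, a tetraspanin gene and not a hyaluronidase gene, was also counted in this list and had its largest difference, -0.31. Cemip, another hyaluronan-depolymerizing protein, is listed under its earlier name 9930013L23Rik and differed by -0.04. Among other hyaluronan receptors and binding proteins 0 of 4 passed, with a median of 0.09. Layn, which encodes the membrane receptor layilin, had the largest difference there, with 9.63 in the Cre-labelled library against 9.08 in the GFP-labelled library.

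Of 7 listed partners of TSG-6, 3 were compared, and 3 of 3 lay above 0 with 1 past the threshold. That gene was Ptx3, the pentraxin that binds TSG-6 in hyaluronan-rich matrix, with 13.27 in the Cre-labelled library against 12.15 in the GFP-labelled library, a difference of 1.13 or 2.18-fold. The heavy chain genes Itih2 and Itih5 differed by 0.19 and 0.09. For comparison, 6393 of all 12809 genes compared lay above 0. At 1.5-fold, 2.25% of genes were higher, or 3.67% where the mean log2 value reached 12, as for Ptx3. CD44 sheddases and cytoskeletal linkers had 0 of 5 past the threshold. The sheddase gene Adam17 differed by 0.37 and Adam10 by 0.09. Of the linkers that tie CD44 to actin, Msn differed by 0.20, Ezr by -0.21 and Rdx by -0.11.

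Among proteases that cut the aggregate, with an inhibitor of them, 3 of 11 genes were higher by 1.5-fold or more and 1, the inhibitor gene Timp3, was lower. Of all genes compared, 2.25% were higher and 0.952% lower, or 3.67% and 2.94% where the mean log2 value reached 12. The median was 0.29. Mmp3, stromelysin, which cuts aggrecan and link protein, had 16.50 in the Cre-labelled library and 13.23 in the GFP-labelled library, a 9.63-fold difference. The collagenase gene Mmp13, whose product also cuts aggrecan, was 3.57-fold higher. Adamts5, the main aggrecanase of mouse cartilage, had 11.78 against 11.12, a difference of 0.66. Timp3, whose product inhibits aggrecanases, had 15.36 against 16.21, a difference of -0.85. The ratio of Acan to Adamts5 was therefore 2.81-fold lower, and that of Timp3 to Adamts5 2.86-fold lower, in the Cre-labelled library. This list was drawn up with the direction of Mmp3, Mmp13, Adamts5 and Timp3 known from these libraries, so it is not independent evidence. Messenger RNA levels do not measure cleavage of the matrix.

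Collagens and adaptor proteins that hold the aggregate in cartilage lay mostly below 0. Of 12 compared, 9 lay below 0 and 2 passed 1.5-fold on that side, at a median of -0.40. Of all 12809 genes compared, 6416 lay below 0. At 1.5-fold, 0.952% of all genes were lower, or 2.94% where the mean log2 value reached 12. Matn3 and Matn1, the genes of matrilins that bridge aggrecan and collagen fibrils, differed by -0.89 and -0.66. Col11a2 differed by -0.56 and Col11a1 by -0.55. The gap between Acan and Col2a1 moved by -0.45 on the log2 scale, so the ratio of Acan to Col2a1 was 1.36-fold lower in the Cre-labelled library. The fibulin gene Fbln1, whose product binds lecticans, differed by 0.31, the highest of the list. The transcription factor genes Sox9, Sox5 and Sox6, known activators of Acan and Hapln1, differed by -0.39, -0.27 and -0.34, with 0 of 3 past the threshold.

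**Figure D5:**
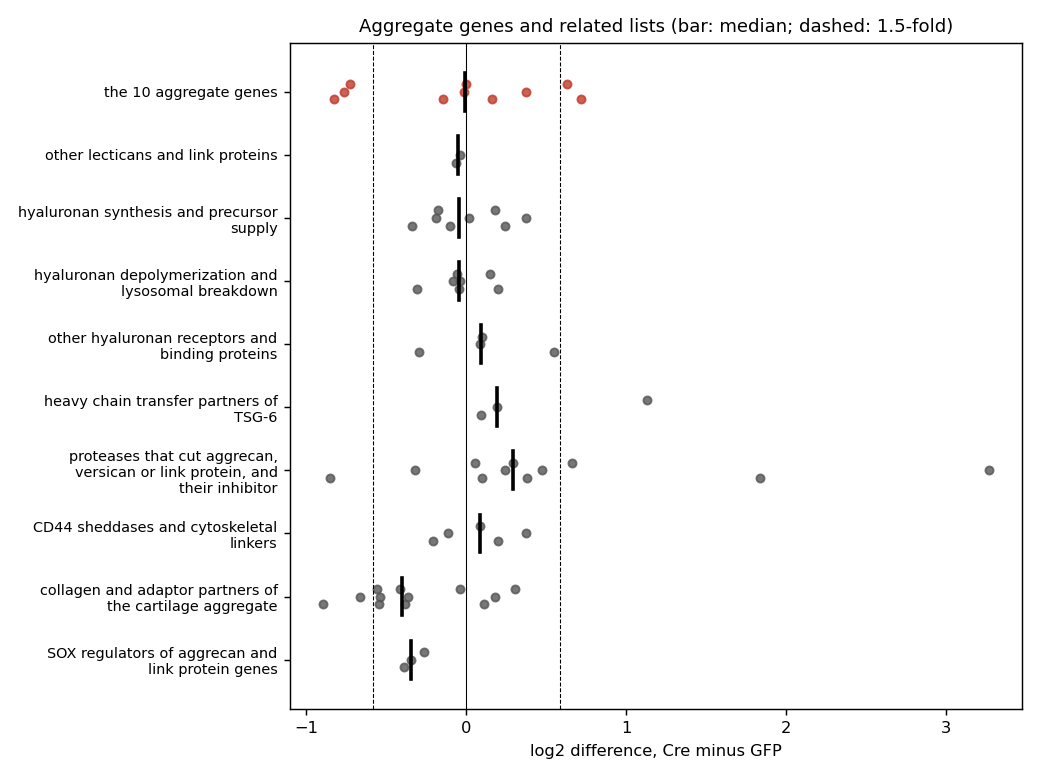
Log2 difference (Cre minus GFP) of each gene (points) in the aggregate set (red) and in 9 lists of related genes (grey), with the median of each list as a black bar, a solid line at 0 and dashed lines at 1.5-fold; points are offset vertically for legibility. The aggregate genes lie on both sides of 0, the collagen and adaptor list has a median of -0.40, and the protease list reaches from -0.85 to 3.27.

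Markers of cell types differed between the libraries along with these genes, and their part in the differences was not tested. For comparison, 6393 of all 12809 genes compared lay above 0 and 6416 below. At 1.5-fold, 2.25% were higher and 0.952% lower, or 3.67% and 2.94% where the mean log2 value reached 12. Of 8 chondrocyte markers, 7 lay below 0 with 2 past 1.5-fold, Lect1 and Matn1, with a median of -0.40. The collagen gene Col2a1 made up 75.4% of their summed linear level in the GFP-labelled library, so the quotient of the sums (Cre over GFP), 0.755, is mainly that of this gene. Lect1 and Matn1, at -0.69 and -0.66, lay nearer to Acan at -0.83, while Comp and Chad were at -0.04 and 0.03. Of 9 macrophage markers, 7 lay above 0, with 4 past 1.5-fold higher and 1 past 1.5-fold lower, at a median of 0.28. The summed level was 1.61 times as high (15.50 against 14.81 as a log2 value), with Lyz2 making up 56.4% of it in the GFP-labelled library. The macrophage surface gene Emr1 differed by 1.08, the monocyte receptor gene Cd14 by 1.04 and the lysozyme genes Lyz1 and Lyz2 by 0.91 and 0.84. The mannose receptor gene Mrc1 differed by -0.73. The common leukocyte gene Ptprc differed by 0.26 and the macrophage growth factor receptor gene Csf1r by 0.08. Of 9 fibroblast and perichondrial markers, 4 lay above 0 and 1, Lum, was at least 1.5-fold higher, with a summed level 1.03 times as high. The table starts at a mean log2 value of 5, so it cannot show a marker at 0, and Snorc, Bglap2, Tek and Ckm were not analysed here. In a bulk sample, fewer cells of a type and less RNA per cell cannot be told apart.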

How the data were processed

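RNA from 2 cultures was sequenced after TRIzol extraction and Illumina TruSeq v2 mRNA library preparation, per the labels' protocols. TopHat2 2.0.6, bcl2fastq 1.8.4, HTSeq and the build mm10 are named, without roles, per the submitters' processing notes. The strand setting, the annotation and the transform are not given in sources used here. The authors deposited log2 normalized counts, 1 column per library, with their mean and difference. The difference is headed rLogFC. If that is a regularized log, differences of low-level genes are understated, and linear values and folds are those of the transformed values. It is GFP minus Cre in 13138 of 13138 rows within 1e-06, and its sign was turned here, so that positive values are higher in Cre.

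Genes averaging 50 or more normalized counts (5.64 in log2) were compared, 12809 in all, and counted as higher or lower at 1.5-fold, with no test. Coordinates and exon lengths (union of exons) come from GENCODE M21 on GRCm38, promoter windows from RefSeq. Named were the 10 members, genes beside or overlapping them, Hdac3 and at most 4 genes of each list by largest difference. Ugdh, 9930013L23Rik, Adam10, Fbln1, Col2a1 and the markers named singly were chosen after their values were seen. Members and lists were chosen with earlier results of these data known. Alternatives were the minimum, 4 scalings, the threshold, the mean, leaving out a member and transcript length. Python 3.11.15, numpy 2.4.6, pandas 2.3.3 and matplotlib 3.10.9 were used.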

Additional observations from a re-analysis of the deposited data

How the results depend on the processing

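The scalings move all genes by the same amount, at most 0.07, and a minimum cannot change a gene's difference, so the split could hardly change: Acan ranged from -0.90 to -0.81, Hapln1 from -0.83 to -0.75, Susd5 from -0.79 to -0.71, Tnfaip6 from 0.65 to 0.73 and Vcan from 0.57 to 0.65. Has3 and Hyal2 lay so near 0 that their sign turned. Scaling to 14 common reference genes (offset 0.07) left 1 member at least 1.5-fold higher, Tnfaip6, since Vcan moved to 0.57. At 2-fold 0 members were lower and 0 higher. Split by level after the data were seen, members whose mean log2 value reached 12 gave 3 lower and 1 higher by 1.5-fold. Of all genes at that level, 2.94% were lower and 3.67% higher. Members below 12 gave 0 lower and 1 higher, beside 0.716% lower and 2.08% higher of all genes there. The members' median, -0.01, became 0.08 at a minimum 10 times higher (8 members), -0.07 with reference genes, 0.00029 and 0.0074 with equal totals (with and without Rn45s and Lars2) and -0.06 as a mean, and lay between -0.01 and -0.0017 with each member left out in turn. The order of levels per kilobase was the same by transcript length, which does not settle the place of Hyal1 because shared bases were kept. No paired analysis was possible because a group had 1 library, and no replicate could be left out. With depth unknown, differences of low-level members such as Has3 cannot be given a limit.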

Other observations

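Marker lists for bone, vessel and muscle were also read. Over all 12809 genes compared, 6393 lay above 0 and 6416 below, with 2.25% higher and 0.952% lower by 1.5-fold. Of 6 osteoblast markers, 6 lay below 0 and 0 passed 1.5-fold, at a median of -0.22 and a largest difference of -0.47 for Sp7. Of 4 endothelial markers, 0 passed the threshold in either direction, at a median of 0.07. Of 4 skeletal muscle markers, 4 lay above 0 and 1, the sarcomere gene Ttn, was at least 1.5-fold higher (0.67), and their summed linear level was 1.42 times as high in the Cre-labelled library. These values were not set against the aggregate genes.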
